A study of Mus musculus with 71 samples.

Results

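Microglia that lay on the injured side of a neonatal stroke but did not carry the Spp1 reporter signal were compared with microglia from the opposite side of the brain. The members are the 4 GFP-negative libraries of stroke cortex and the 4 libraries of contralateral cortex in the table of the stroke at postnatal day 6 (P6), 8 of the 71 samples and of the 67 bulk libraries of the series. Of the 55413 genes in that table, 13136 had a TPM of at least 1 in 4 or more of its 12 libraries and were tested, where TPM is a transcript's share of its library, corrected for length and scaled to the same total in every library. The mice were Spp1-GFP heterozygous, so that GFP marks cells that use the Spp1 gene, and all groups carry this reporter. The stroke model, which the labels call SIMPLE, was made at P6 and the cortex was taken at P9. The GFP-negative libraries hold GFP- microglia of the stroke cortex. For the contralateral libraries the labels name microglia without a gate, and the column names of the table carry the GFP-negative tag. A further 4 libraries of GFP+ microglia from the stroke cortex shared the fit, and a stroke made at P28 and collected at P35 gave the same 2 groups with 4 libraries each. Each library was made from 2000 sorted cells. The labels do not tie a library to an animal or say whether animals were pooled, so the p-values measure the spread between these libraries, which may be partly technical. The submitters set out to describe how the reactive state of microglia varies between disorders of the brain.

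Microglia are the resident macrophages of the brain. They descend from yolk sac precursors and multiply during the first weeks after birth in the mouse. Spp1 encodes osteopontin, a secreted phosphoprotein that is abundant in microglia near lesions and in the amoeboid microglia of the early postnatal white matter. The GFP-negative cells are therefore the microglia of the injured cortex without this marker. Antigen presentation to helper T cells uses MHC class II molecules, which resting microglia carry sparsely and dendritic cells carry in abundance.

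Expression was known as TPM, without counts, so the depth of the libraries is unknown. The contralateral libraries had between 16529 and 16860 genes above 0 and the GFP-negative libraries between 16178 and 17278. Mitochondrial transcripts made up 5.77 to 6.70% of the TPM on the contralateral side and 5.76 to 7.05% in the GFP-negative libraries, and ribosomal proteins 14.8 to 15.3% and 15.3 to 16.6%. In each P6 group, libraries 1 and 2 held transcripts of the Y chromosome and libraries 3 and 4 did not. The label of microglia was borne out by the markers. Csf1r, the receptor that keeps microglia alive, lay between 4040 and 5096 TPM in all 8 libraries. None of the 11 microglial check genes passed the test, and their summed level was 25495 to 29170 TPM on the contralateral side and 24714 to 29506 TPM in the GFP-negative libraries.

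The sides differed in few genes. By limma on log2(TPM + 1), with Benjamini-Hochberg adjustment over the 13136 genes, 36 genes (0.274% of those tested) had an adjusted p under 0.05. They were 12 genes higher in the GFP-negative libraries (0.0914%) and 24 genes lower (0.183%), and in all 36 the 4 GFP-negative libraries lay outside the range of the 4 contralateral ones. At an unadjusted p under 0.05, 282 genes were higher (2.15%) and 769 lower (5.85%). Without overlap between the libraries, 228 genes were higher (1.74%) and 607 lower (4.62%). The median log2 fold change of all tested genes was -0.05, with a median SE of 0.213. The count of 36 rested on the full set of libraries. It was 23, 5 and 6 without GFP-negative libraries 1, 2 and 4, and 3, 8, 16 and 5 without contralateral libraries 1, 2, 3 and 4. Every one of the 36 genes kept its direction in each of these fits. With no overlap between the sides, leaving out 1 library could not have reversed it, so this is not a sign of stability. With the libraries rescaled by median of ratios, 8 genes were higher and 10 lower.

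Of the 12 genes that rose, 3 were MHC class II genes. H2-Aa encodes the alpha chain and H2-Ab1 the beta chain of the I-A molecule, and H2-Eb1 encodes the beta chain of I-E. They lie side by side on chromosome 17 of GRCm38, H2-Ab1 at chr17:34257689-34269419 on the plus strand, H2-Aa at chr17:34282744-34287823 on the minus strand and H2-Eb1 at chr17:34305867-34316674 on the plus strand. Promoters of these genes are known for a Y box, an inverted CCAAT element bound by NF-Y next to the factors that recruit the coactivator CIITA. Promoters of 2 of the 3 genes were found in the RefSeq table for GRCm38.p6 and are printed because these genes moved together. Each runs from 250 bases before to 50 after the gene's start. The capitals mark the letters CTGATTGG, a form of the Y box that was searched on both strands and contains the reverse complement of CCAAT. H2-Aa is chr17:34287774-34288073 read on the minus strand, and H2-Eb1 is chr17:34305617-34305916 on the plus strand.
H2-Aa: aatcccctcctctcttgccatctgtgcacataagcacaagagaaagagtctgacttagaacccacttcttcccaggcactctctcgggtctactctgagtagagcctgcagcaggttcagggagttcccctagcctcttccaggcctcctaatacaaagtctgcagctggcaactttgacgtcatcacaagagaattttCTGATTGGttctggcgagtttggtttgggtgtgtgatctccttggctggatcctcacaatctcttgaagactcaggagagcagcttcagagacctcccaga
H2-Eb1: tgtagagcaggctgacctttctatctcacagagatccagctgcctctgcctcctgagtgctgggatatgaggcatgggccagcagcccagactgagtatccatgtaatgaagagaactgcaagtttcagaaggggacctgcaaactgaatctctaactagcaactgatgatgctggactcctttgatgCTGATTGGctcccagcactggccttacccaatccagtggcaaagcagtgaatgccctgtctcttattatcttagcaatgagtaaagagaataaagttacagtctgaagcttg
The element began 51 bases before the start of H2-Aa and 62 bases before that of H2-Eb1, and 4.1% of the 32851 promoters in the table hold these letters on either strand.

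H2-Aa was nearly absent from the contralateral libraries, at 0.17, 0, 0 and 0 TPM in libraries 1 to 4, and stood at 74.1, 159, 23.2 and 178 TPM in the GFP-negative libraries. The lowest GFP-negative library lay above every contralateral one. On the log2(TPM + 1) scale the difference was 6.35 (SE 0.81, 95% interval 4.61 to 8.09, adjusted p 0.0103), and with a pseudocount between 0.1 and 5 it ranged from 4.17 to 9.35, since a level near 0 sets the size. H2-Eb1 measured 0.57, 0.38, 1.06 and 0 TPM on the contralateral side and 59.1, 152, 21.6 and 133 TPM in the GFP-negative libraries, a log2 difference of 5.65 (SE 0.77, adjusted p 0.0119). Its libraries took the same order as those of H2-Aa at the low end, with GFP-negative library 3 the lowest. H2-Ab1 was present on both sides, at 19.8, 12.6, 14.6 and 15.4 TPM against 129, 262, 44.2 and 260 TPM, and was higher by 3.11 (SE 0.52, adjusted p 0.0275). Cd74, the invariant chain that guides class II molecules to the endosome, measured 101, 80.3, 106 and 116 TPM against 220, 315, 130 and 293 TPM. Its libraries did not overlap, but the log2 difference of 1.17 (SE 0.23) missed the threshold with an adjusted p of 0.0595.

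The rest of the class II list stood apart less clearly. Of 12 listed genes, 11 passed the filter on low values, 3 rose and none fell, against 0.0914% of all tested genes. At an unadjusted p under 0.05, 7 were higher, against 2.15% of all genes. The median log2 fold change of the 11 was 0.24 beside -0.05 for all genes. Ciita, the coactivator without which class II genes stay silent, was too low to be tested, at 0.17, 0.07, 0.41 and 0.29 TPM on the contralateral side and 0.53, 3.24, 0.71 and 1.98 TPM in the GFP-negative libraries, which lay above the contralateral ones. Ctss, the protease that trims the invariant chain, lay between 5695 and 6187 TPM and between 6409 and 7358 TPM, without overlap (log2 difference 0.22, SE 0.06, adjusted p 0.249). H2-DMb1, a chain of the peptide exchange factor H2-DM, differed by 0.32 (SE 0.10, adjusted p 0.317), and its partner H2-DMa by 0.06 (SE 0.13, adjusted p 0.944). The count of 3 fell to 1 without GFP-negative library 2 or 4, without contralateral library 1 or 4, and to 2 without GFP-negative library 1 or contralateral library 2 or 3, and rose to 4 without GFP-negative library 3. H2-Aa kept its call in all 18 alternatives tried, H2-Eb1 in 14 and H2-Ab1 in 9 of 18.

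**Figure D1:**
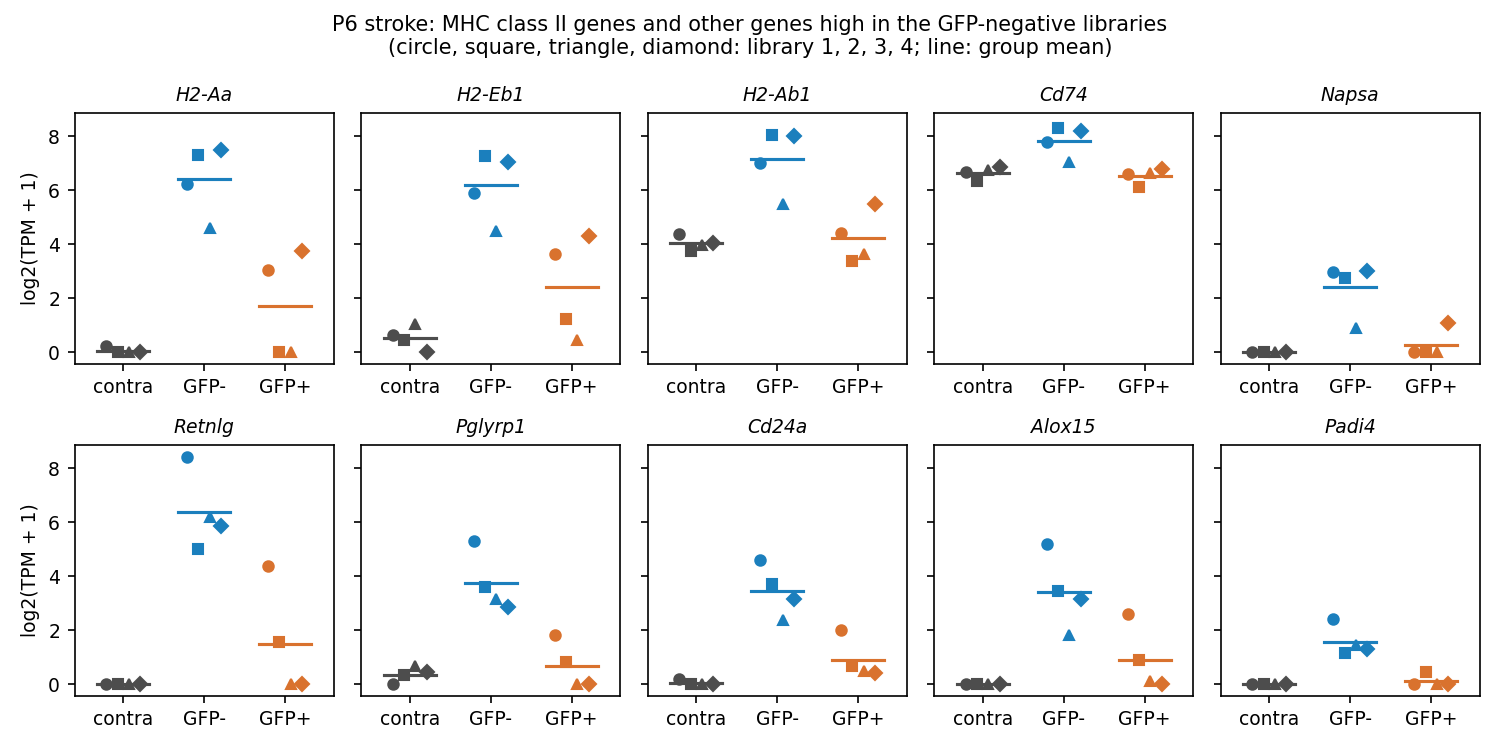
Each panel shows 1 gene in the P6 libraries on the log2(TPM + 1) axis, with 4 libraries each of the contralateral side, GFP-negative and GFP-positive microglia, marked by library number, and the group mean as a line. The 4 MHC class II genes in the first panels and the 6 genes after them are highest in the GFP-negative libraries, and 4 of the 10 genes (Napsa, Retnlg, Alox15 and Padi4) are at 0 in all contralateral libraries.

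Another 6 genes that rose are described together because each is known from leukocytes, a grouping made after they were called. Of these, Retnlg is on the neutrophil list, Napsa on the list of monocyte-derived cells, and the other 4 are on no list of leukocyte markers used here. Retnlg, a resistin-like protein of neutrophils (chr16:48872621-48874496, plus strand), was listed at 0 in all 4 contralateral libraries and at 345, 31.6, 72.5 and 57.9 TPM in the GFP-negative libraries, with an adjusted p of 0.0115. Library 1 held the most and no GFP-negative library was near 0. Pglyrp1, a peptidoglycan recognition protein of neutrophil granules, went from 0, 0.27, 0.58 and 0.36 TPM to 39.1, 11.2, 7.90 and 6.34 TPM, higher by 3.38 on the log2(TPM + 1) scale (SE 0.51, adjusted p 0.0185). Cd24a, a surface glycoprotein of granulocytes and lymphocytes, went from 0.16, 0, 0 and 0 TPM to 23.3, 12.1, 4.26 and 7.86 TPM, higher by 3.41 (SE 0.44, adjusted p 0.0103). These 3 genes, and Alox15 and Padi4 described next, share GFP-negative library 1 as their highest library. Alox15, a lipoxygenase of eosinophils and some macrophages, was listed at 0 on the contralateral side and at 36.0, 10.1, 2.57 and 8.00 TPM in the GFP-negative libraries (adjusted p 0.0434). Padi4, which citrullinates histones in neutrophils, was listed at 0 and at 4.33, 1.22, 1.74 and 1.46 TPM (adjusted p 0.0483). Napsa, an aspartic protease, was listed at 0 and at 6.88, 5.70, 0.88 and 7.07 TPM (adjusted p 0.0391), with GFP-negative library 3 the lowest, as for the class II genes. Cd24a kept its call in all 17 alternatives in which it was tested and Retnlg in 17 of 18, losing it without contralateral library 1 (adjusted p 0.0511). Pglyrp1 kept it in 12 of 18, Alox15 in 7 of 18, and Padi4 and Napsa in 3 of 17 each. Padi4 reached 1 TPM in the GFP-negative libraries alone, so it passed the filter only through the group where it was high. Retnlg, Pglyrp1, Cd24a, Alox15 and Napsa, like H2-Aa, reached 1 TPM in no contralateral library and passed mainly through that group. For such genes the filter favours a difference, so the p-values and the lack of overlap are not independent of it.

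Some markers of other cells were also higher in the GFP-negative libraries, and their part in the results was not tested. On the neutrophil list, 5 of 14 genes passed the filter and Retnlg was the 1 that rose. The summed level of the list was 116 to 130 TPM on the contralateral side, and 511, 189, 227 and 199 TPM in GFP-negative libraries 1 to 4. Retnlg itself is on the list, and without it the sums of the GFP-negative libraries were 166, 157, 155 and 141 TPM. Most of the contralateral sum was Csf3r, the receptor for granulocyte colony-stimulating factor, at 107 to 124 TPM there and 114 to 133 TPM in the GFP-negative libraries. The calgranulin genes S100a8 and S100a9 were listed at 0 in the contralateral libraries, and at 23.04, 0, 14.3 and 0 TPM and 8.14, 12.5, 19.1 and 0 TPM in the GFP-negative ones. The list members Ly6g, Ltf, Camp and Elane were at 0 in all 12 libraries, and 11 of the 14 were at 0 throughout the contralateral side.

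On the list of monocyte-derived cells, 14 of 24 genes passed the filter and Napsa was the 1 that rose, with summed levels of 103 to 125 TPM against 200, 181, 100 and 124 TPM. Ccr2, the chemokine receptor of monocytes, measured 0.53, 1.10, 0.56 and 0.11 TPM and 5.23, 2.63, 0.90 and 5.24 TPM (adjusted p 0.311), and Ly6c2, a surface marker of inflammatory monocytes, was at 0 in the contralateral libraries and at 0.41, 3.75, 0 and 0 TPM. GFP-negative library 3 was again the lowest or tied for it. On the dendritic cell list 6 of 12 genes passed the filter and none passed the test, with sums of 1615 to 1841 TPM against 1448 to 1826 TPM. Of the 6, 4 had negative and 2 positive fold changes, with a median of -0.05 beside -0.05 for all genes. Without overlap, 1 was lower and none higher, against 4.62% and 1.74% of all genes. The members named next lay mostly higher in the GFP-negative libraries, unlike most tested members. Flt3, the receptor of dendritic cell precursors, was at 0.36, 0.06, 0.20 and 0.08 TPM against 1.5, 2.41, 0.52 and 3.86 TPM. Clec9a, a marker of cross-presenting dendritic cells, was at 0 on the contralateral side and at 1.34, 1.00, 0.19 and 1.55 TPM, and Cd209a, of monocyte-derived dendritic cells, at 0 and at 0.43, 3.76, 0 and 6.93 TPM. The sums of the T cell list were 2.94 to 4.06 TPM and 10.6, 4.53, 2.73 and 10.9 TPM, with Cd3e at 0 in all 12 libraries, and those of the NK cell list 0 to 0.67 TPM and 10.6, 3.10, 1.51 and 0.74 TPM. Border-associated macrophages, B cells, oligodendrocytes, astrocytes and endothelial cells had no member that passed, and the sums of the first were 902 to 1146 TPM and 705 to 1077 TPM. In bulk libraries, more cells of a type and more RNA of a gene per cell cannot be told apart, and the same holds for fewer cells and less RNA.

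Genes of the largest differences included some that missed the threshold. Plbd1, a phospholipase B-like protein of granulocytes and monocytes, was at 0, 0.42, 0 and 0 TPM on the contralateral side and at 8.78, 24.4, 0.82 and 22.9 TPM in the GFP-negative libraries, without overlap (log2 difference 3.22, SE 0.65, adjusted p 0.0611). S100a11, a calcium-binding protein, measured 3.61 to 4.94 TPM and 33.5, 35.1, 7.05 and 12.5 TPM (1.88, SE 0.49, adjusted p 0.176). The remaining genes that rose were Apoe, described further on, and 2 transcripts at the edge of the filter. Gm36262, a processed pseudogene, and 1700058P15Rik, annotated as antisense, were listed at 0 on the contralateral side and between 1.70 and 2.36 TPM and between 1.24 and 3.34 TPM in the GFP-negative libraries. Neither reached 1 TPM outside the GFP-negative libraries, so both passed the filter only through that group. The sources used here do not say whether strand was used in counting, so reads of an antisense gene and its partner cannot be told apart. Exons of 11 of the 36 genes overlap an exon of another gene in GENCODE M21, Napsa with Gm15396 on the opposite strand among them.

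Of the 24 genes that fell, 7 were on the cell cycle list. The cell cycle is driven by cyclins and their kinases, replication needs nucleotides and the MCM helicase, and mitosis needs a spindle and its checkpoint. Another 14 were named genes outside the list, and 3 were unnamed transcripts or pseudogenes. Of the 43 genes on the list, 42 were in the table and all of these passed the filter. Of the 42, 7 fell and none rose, against 0.183% and 0.0914% of all tested genes. At an unadjusted p under 0.05, 32 were lower, against 5.85% of all genes, and 29 were lower without overlap, against 4.62%. All 42 fold changes were negative, with a median of -0.63 beside -0.05 for all genes. Under median-of-ratios rescaling, which moved the median of all genes to 0.00, the list's median was -0.57. The summed level of the list was 2343, 2580, 2263 and 2409 TPM in contralateral libraries 1 to 4, and 1659, 1572, 1569 and 1599 TPM in the GFP-negative libraries, all of them below the contralateral range.

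Promoters of many genes of the second part of the cell cycle are known to pair CCAAT elements, bound by NF-Y, with a cell cycle homology region (CHR, letters TTTGAA). Of the 21 named genes that fell, 17 had promoters in the RefSeq table, 19 promoters in all. CCAAT was found on either strand in 14 of the 19, in 12 genes, and in 37.4% of all 32851 promoters. TTTGAA was found in 10 of the 19, in 9 genes, and in 17.9% of all. Both were found in 9 of the 19, in 8 genes, and in 6.95% of all. The promoters of Cdca8 and Racgap1 are printed because they hold both in close spacing. The capitals mark ATTGG, the reverse complement of CCAAT, and TTTGAA. Cdca8 is chr4:124936868-124937167 and Racgap1 is chr15:99651607-99651906 in GRCm38.p6, each read on the minus strand.
Cdca8: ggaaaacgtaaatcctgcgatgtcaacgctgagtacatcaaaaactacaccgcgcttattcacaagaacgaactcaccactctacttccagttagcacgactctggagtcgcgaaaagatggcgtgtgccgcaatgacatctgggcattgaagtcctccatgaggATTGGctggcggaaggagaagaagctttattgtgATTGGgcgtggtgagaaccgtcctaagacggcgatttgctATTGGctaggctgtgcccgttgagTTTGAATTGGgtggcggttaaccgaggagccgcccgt
Racgap1: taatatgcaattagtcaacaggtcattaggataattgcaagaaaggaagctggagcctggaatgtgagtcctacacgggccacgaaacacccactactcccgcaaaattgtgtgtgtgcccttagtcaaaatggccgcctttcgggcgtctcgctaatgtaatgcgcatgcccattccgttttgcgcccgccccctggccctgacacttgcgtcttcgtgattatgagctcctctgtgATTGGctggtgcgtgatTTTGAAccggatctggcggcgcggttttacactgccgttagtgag
In Cdca8 the elements in ATTGG orientation began 85, 51 and 11 bases before the RefSeq start and 18 bases after it, where the last shares letters with a TTTGAA. GENCODE M21 places Cdca8 at chr4:124918465-124939311 on the minus strand, so its outermost start lies upstream of this window. In Racgap1 ATTGG began 12 bases before the start. A match of letters is a description of these windows.

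Among the genes of DNA synthesis, Rrm2, the regulated subunit of ribonucleotide reductase (chr12:24708241-24714146, plus strand), was the clearest. It measured 83.9, 89.4, 85.4 and 78.8 TPM on the contralateral side (mean 84.4 ± 4.41, SD, n = 4) and 47.2, 47.2, 44.7 and 37.4 TPM in the GFP-negative libraries (44.1 ± 4.64). The groups were far apart relative to their spread, with a log2 difference of -0.92 (SE 0.11, 95% interval -1.16 to -0.69, adjusted p 0.00923), and Rrm2 was called in all 18 alternatives. Tyms, which makes thymidylate, measured 67.5, 81.6, 81.4 and 69.3 TPM and 43.1, 42.3, 51.0 and 44.6 TPM (-0.71, SE 0.12, adjusted p 0.0268). Pclaf, a PCNA clamp associated factor, fell from 39.0 to 51.6 TPM to 22.2 to 33.7 TPM (-0.76, SE 0.14, adjusted p 0.0392). Mcm2 to Mcm7, the subunits of the replicative helicase, were lower by a median of -0.36 with none past the threshold, between -0.47 for Mcm5 and -0.27 for Mcm6. Mcm7 came nearest, at 90.1 to 99.4 TPM against 63.3 to 71.9 TPM (-0.45, SE 0.09, adjusted p 0.0611). E2f1, the transcription factor of S phase entry, differed by -0.10 (SE 0.16, adjusted p 0.932), and its libraries overlapped.

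The genes of mitosis had the more negative fold changes. When the list was split by role, which was done after its values were seen, the 21 genes counted to mitosis had a median of -0.75. Of these, 4 fell and 18 were lower without overlap, against 0.183% and 4.62% of all genes. This set held every member outside the replication set, Ccna2 among them, other than Stmn1 and Hmgb2 (median -0.71). The 19 genes of replication and S phase had a median of -0.43, with 3 that fell and 9 without overlap, against the same shares. The difference between the 2 sets was not tested. Tpx2, a factor of spindle assembly, measured 29.4, 33.2, 23.8 and 32.3 TPM on the contralateral side and 15.0, 10.7, 13.6 and 15.2 TPM in the GFP-negative libraries (-1.07, SE 0.16, adjusted p 0.0167). The highest GFP-negative library lay well below the lowest contralateral one. Nusap1, a microtubule-bundling protein of the spindle, fell from 25.0 to 32.4 TPM to 11.8 to 16.3 TPM (-0.98, SE 0.16, adjusted p 0.0254). Ccna2, the cyclin A of S and G2 phase, measured 56.5, 69.1, 48.6 and 58.1 TPM and 36.5, 27.3, 33.4 and 28.7 TPM (-0.86, SE 0.13, adjusted p 0.0196). Top2a, the topoisomerase that untangles chromosomes, measured 53.2, 65.6, 49.6 and 57.8 TPM and 36.2, 32.3, 32.7 and 31.9 TPM (-0.74, SE 0.13, adjusted p 0.0275). In these 4 genes no GFP-negative library reached the contralateral range. The exons of Nusap1 overlap those of Oip5, of Ccna2 those of Exosc9 and of Top2a those of Gm23451.

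Some members that missed the threshold had fold changes as large as those that fell. Cenpf, a kinetochore protein, had the most negative value of the list at -1.11 (SE 0.27, adjusted p 0.14), with GFP-negative library 1 apart at 8.19 TPM. Cdc20, the activator of the anaphase-promoting complex, had -0.99 (adjusted p 0.112). Mki67, the gene of the proliferation antigen Ki-67, measured 16.1, 19.6, 20.2 and 21.8 TPM and 12.8, 8.68, 12.9 and 11.5 TPM, without overlap (-0.72, SE 0.19, adjusted p 0.173). Others were smaller, such as Cdk1. Cdk1, the kinase of mitotic entry, lay at 132 to 142 TPM and at 73.0 to 119 TPM (-0.48, SE 0.13, adjusted p 0.214). Ube2c, Birc5, Stmn1 and Ccnb2 had adjusted p-values of 0.0525, 0.0554, 0.0554 and 0.0559. The list's count of 7 fell to 1 without GFP-negative library 2 or contralateral library 1, 2 or 4, and to 2 without GFP-negative library 4, and was 16 with limma array weights, 11 with a filter of 5 TPM and 4 without a trend in the variance. The median stayed between -0.68 and -0.54 when any 1 library was left out.

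**Figure D2:**
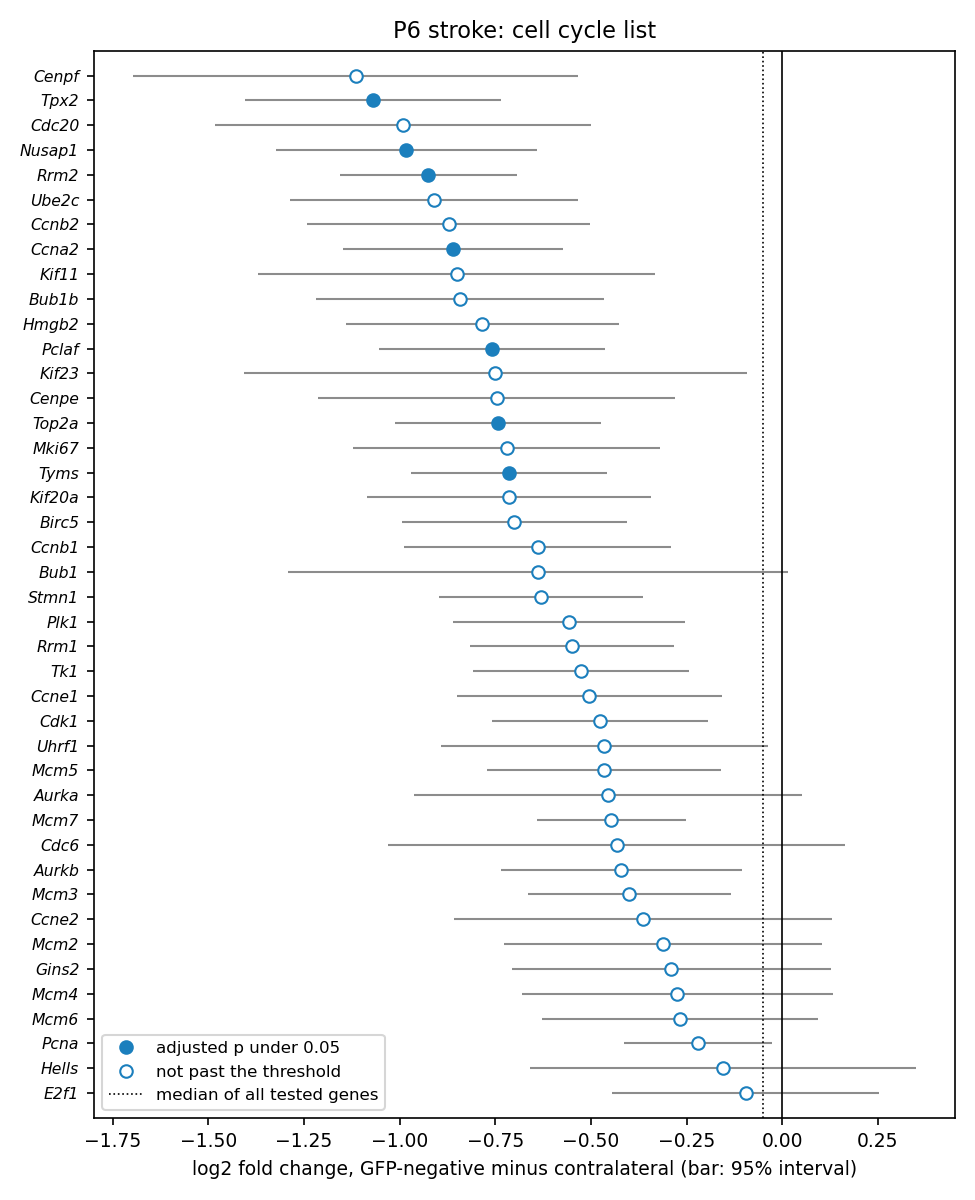
The 42 tested members of the cell cycle list are ordered by their log2 fold change, GFP-negative minus contralateral, with 95% intervals, filled where the adjusted p is under 0.05, beside the median of all tested genes. All 42 points lie below 0, from -1.11 for Cenpf to -0.10 for E2f1, and the 7 filled points are Tpx2, Nusap1, Rrm2, Ccna2, Pclaf, Top2a and Tyms.

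The 14 named genes that fell outside the list were assigned no list, and their known roles are given gene by gene. Racgap1, which acts in cytokinesis, measured 54.6, 68.6, 59.6 and 55.2 TPM on the contralateral side and 30.8, 20.1, 37.6 and 31.7 TPM in the GFP-negative libraries (-0.99, SE 0.17, adjusted p 0.0357). Cdca8, or borealin, and Incenp, 2 subunits of the chromosomal passenger complex, fell by 0.85 (adjusted p 0.0196) and by 0.68 (adjusted p 0.0434) on the log2 scale. The kinetochore genes Ndc80 and Knstrn fell by 0.86 (adjusted p 0.024) and 1.01 (adjusted p 0.0389). Prc1, which bundles the midzone of the spindle, fell by 0.82, the mitotic kinase Pbk by 0.78, Ckap2l by 0.90 and Gtse1, expressed in G2 and S phase, by 1.10. Gtse1 was low on both sides, at 6.78 to 7.64 TPM and 2.07 to 3.62 TPM. Chromatin was represented by the histone chaperones Asf1b (-0.66) and Dnajc9 (-0.54) and the nucleosome-binding protein Hmgn2 (-0.44). Hmgn2 was the most abundant of them, at 444 to 569 TPM against 353 to 378 TPM. Tubb4b, a beta tubulin, was lower by -0.53, and Selenoh, a nucleolar selenoprotein, by -0.49. Exons of Cdca8, Ckap2l, Knstrn, Prc1 and Tubb4b overlap those of a gene on the opposite strand.

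The 3 remaining genes that fell are short transcripts or pseudogenes, whose reads are hard to place. Gm27505, a transcript at chr19:5844638-5844747 whose exon lies within one of Neat1 on the same strand, measured 169, 130, 495 and 332 TPM on the contralateral side and 0, 0, 42.2 and 0 TPM in the GFP-negative libraries (adjusted p 0.0167). The pseudogenes Llph-ps2 and Gm48805 had adjusted p-values of 0.0392 and 0.0483, and Gm48805 was at most 2.23 TPM in any library. Gm48805 reached 1 TPM in the contralateral libraries alone, so it passed the filter only through them. Zeros in a TPM table can be failed estimates: 4 of the 1395 genes with a median of at least 100 TPM were at 0 in some P6 library, Gm26473, mt-Co3, mt-Nd4l and Rn7s2.

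Spp1 itself, the gene behind the gate (chr5:104435118-104441050, plus strand), was low on both sides. It measured 7.73, 6.55, 11.3 and 3.40 TPM in the contralateral libraries, 15.1, 91.6, 6.41 and 5.97 TPM in the GFP-negative libraries and 309, 784, 240 and 425 TPM in the GFP-positive libraries. GFP-negative library 2 stood apart from the other 3, and the GFP-positive libraries lay above all others. GFP-negative minus contralateral was 1.11 (SE 0.67, 95% interval -0.32 to 2.54, adjusted p 0.754), and 0.28 without GFP-negative library 2. GFP-positive libraries exceeded the contralateral ones by 5.68 (adjusted p 0.00112) and the GFP-negative ones by 4.58 (adjusted p 0.00769), which is what the gate selects. Exons of Spp1 overlap those of Gm42793 on the same strand, and the table has no entry for GFP.

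Apoe was the 1 gene of the reactive state that rose. It encodes apolipoprotein E, the lipid carrier that is a hallmark of disease-associated microglia (chr7:19696109-19699188, minus strand). It measured 12413, 14034, 17277 and 14388 TPM on the contralateral side and 22216, 21962, 24325 and 24667 TPM in the GFP-negative libraries, a log2 difference of 0.69 (SE 0.10, 95% interval 0.47 to 0.91, adjusted p 0.0185). The groups did not overlap, and the GFP-positive libraries were higher again, at 35431 to 47355 TPM, above the GFP-negative ones by 0.83 (adjusted p 0.00328). The call was kept in 11 of 18 alternatives. It was lost without GFP-negative library 2 or 4, without contralateral library 1, 2 or 4, without a filter and without a trend in the variance, where the adjusted p reached 0.135.

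The other genes of reactive microglia gave no call. Of 32 genes on the disease-associated list, 30 passed the filter and Apoe alone rose, against 0.0914% of all tested genes. At an unadjusted p under 0.05, 6 were higher and 2 lower, against 2.15% and 5.85% of all genes. Without overlap, 3 were higher and 2 lower, against 1.74% and 4.62%. The list's median was 0.09 beside -0.05 for all genes. Itgax, the integrin CD11c, measured 1.96 to 2.59 TPM and 3.72 to 6.98 TPM without overlap (0.88, SE 0.22, adjusted p 0.144). Gpnmb, a lysosomal glycoprotein, measured 13.6, 8.14, 22.4 and 13.6 TPM, 24.4, 31.2, 31.1 and 18.2 TPM and, in the GFP-positive libraries, 119, 69.0, 143 and 106 TPM. GFP-negative minus contralateral was 0.86 for it (SE 0.28, adjusted p 0.335), with overlap. Lpl, lipoprotein lipase, pointed the other way, at 100 to 130 TPM and 71.4 to 95.8 TPM (-0.31, SE 0.12, adjusted p 0.465), while the GFP-positive libraries stood at 139 to 176 TPM. Apoc1, a small apolipoprotein next to Apoe, measured 8.87, 28.3, 18.5 and 45.1 TPM and 42.2, 75.8, 74.1 and 66.6 TPM (1.51, SE 0.37, adjusted p 0.14). Igf1, a growth factor of reactive microglia, measured 46.3 to 69.5 TPM and 54.6 to 86.0 TPM (0.37, SE 0.17, adjusted p 0.627), and Clec7a, the receptor dectin-1, differed by 0.25 (SE 0.24, 95% interval -0.28 to 0.77). Trem2, the lipid receptor that disease-associated microglia depend on, was level at 1235 to 1336 TPM and 1311 to 1396 TPM (0.06, SE 0.06, 95% interval -0.07 to 0.19). The lists of postnatal amoeboid microglia (23 of 24 tested, median 0.13) and of lipid uptake, storage and efflux (28 of 30, median 0.14) likewise held Apoe as their 1 call. Abcg1, an exporter of cholesterol on the second list, lay at 102 to 119 TPM and 125 to 140 TPM without overlap (0.27, SE 0.08, adjusted p 0.244).

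**Figure D3:**
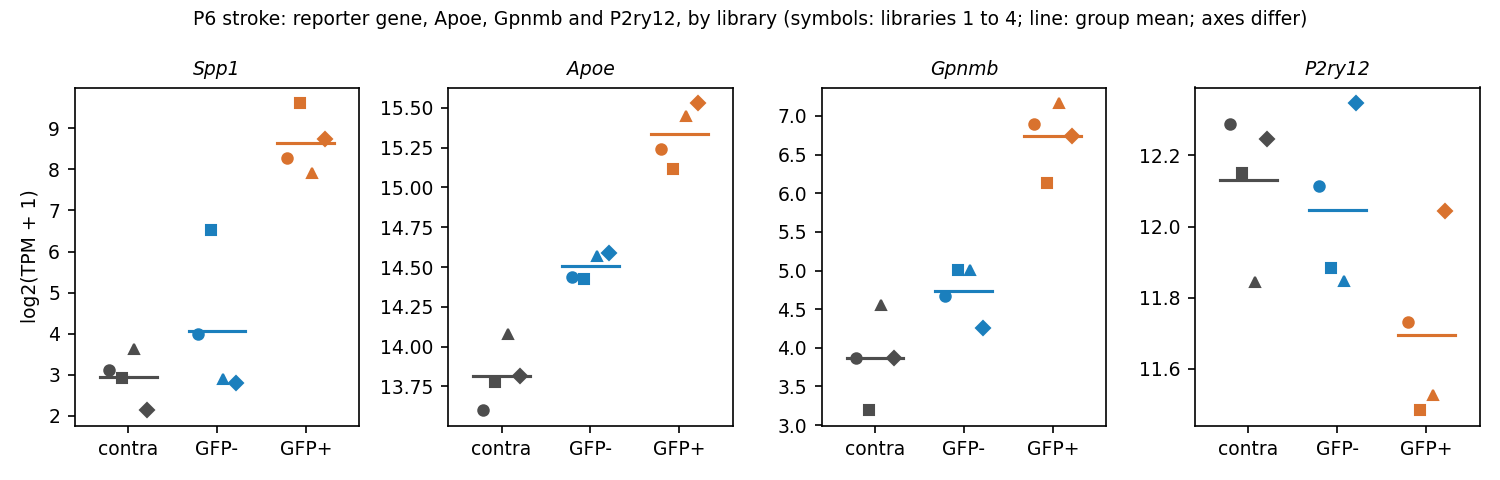
Each panel shows 1 gene in the 12 P6 libraries on its own log2(TPM + 1) axis, with the group mean as a line: Spp1, Apoe, Gpnmb and P2ry12. For Spp1, GFP-negative libraries 3 and 4 sit within the contralateral range, library 1 just above it at 15.1 TPM and library 2 far above it at 91.6 TPM, and for Apoe the 3 groups form separate steps.

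Genes of the resting state did not pass the test. Of 28 homeostatic genes, all tested, none rose or fell by the adjusted test, and the median was -0.05, that of all genes. At an unadjusted p under 0.05, 1 was lower, against 5.85% of all genes. P2ry12, the purine receptor that steers microglial processes, measured 5001, 4549, 3672 and 4853 TPM on the contralateral side and 4428, 3779, 3680 and 5211 TPM in the GFP-negative libraries (-0.08, SE 0.14, 95% interval -0.38 to 0.21). Tmem119, a surface marker of microglia, differed by -0.12 (SE 0.10, 95% interval -0.34 to 0.10), Cx3cr1, the fractalkine receptor, by -0.03 (SE 0.06, 95% interval -0.15 to 0.09), and Sall1, a transcription factor of microglial identity, by -0.06 (SE 0.15, 95% interval -0.39 to 0.27). In all 4 genes the libraries of the sides overlapped. Golm1, a Golgi protein, was the 1 at an unadjusted p under 0.05 (-0.28, SE 0.10, adjusted p 0.465).

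No gene of the interferon response passed at P6. Of 36 listed genes 35 were tested, 27 with negative fold changes, and the median was -0.21. Contralateral library 2 was high for interferon-induced genes, with Ifit2 at 33.1 TPM against 4.68 to 6.71 TPM in the other contralateral libraries, and Ifit3 at 69.2 TPM against 12.2 to 24.6 TPM. Ifitm3, an antiviral membrane protein, measured 116.9, 152, 70.8 and 86.3 TPM and 138, 109, 78.4 and 78.7 TPM (-0.05, SE 0.26, 95% interval -0.62 to 0.51). None of 17 MHC class I genes passed (median 0.00), and H2-K1, a classical class I heavy chain, lay at 674 to 985 TPM and 692 to 890 TPM. Of 27 chemokines and cytokines 19 were tested, with none past the threshold and a median of 0.10. Ccl12, a monocyte chemoattractant, measured 401, 846, 483 and 388 TPM and 440, 1174, 429 and 472 TPM, so that library 2 was the highest on both sides. Il1rn, the interleukin-1 receptor antagonist, measured 2.49, 0.44, 1.17 and 0.82 TPM and 12.1, 5.63, 2.46 and 1.42 TPM, with overlap (1.3, SE 0.52, adjusted p 0.521). Tnf, a cytokine of early inflammation, differed by -0.39 (SE 0.18, adjusted p 0.627).

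Altogether 33 of the 40 lists held no call. Those of NF-kB targets (19 tested, median 0.01), lysosome (30, median -0.06), phagocytic receptors with complement (24, median 0.05), glycolysis (19, median 0.00), hypoxia (13, median 0.01) and nuclear genes of oxidative phosphorylation (30, median -0.07) lay near the median of all genes. In the list of the unfolded protein and stress responses, 4 of 19 tested genes were lower at an unadjusted p under 0.05, against 5.85% of all genes, and none passed the adjusted test. They were Xbp1, the transcription factor of that response (-0.24), the chaperone Hsp90b1 (-0.19), Creld2 (-0.26) and Phgdh, the first enzyme of serine synthesis (-0.23). Of 87 ribosomal protein genes tested, 72 had positive fold changes and 8 were higher at an unadjusted p under 0.05, against 2.15% of all genes, with a median of 0.08, and none passed.

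**Figure D4:**
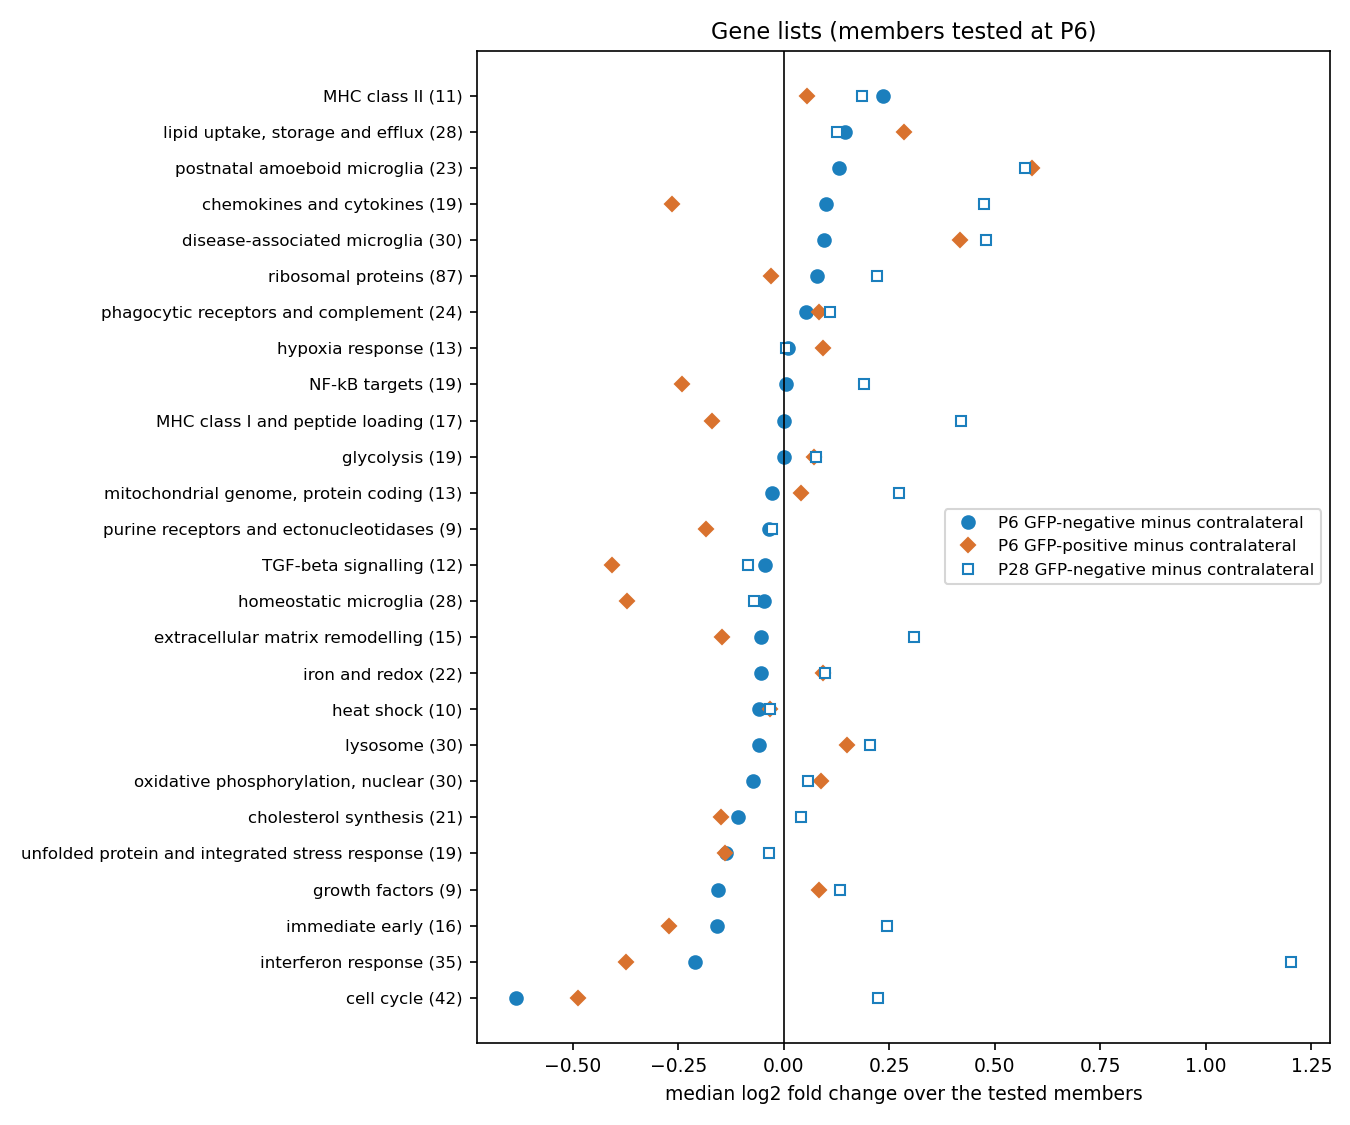
Points give the median log2 fold change over the tested members of each gene list for 3 contrasts, with the number tested at P6 in brackets. The cell cycle list has the lowest median for P6 GFP-negative against contralateral (-0.63), and the interferon list the highest for the same contrast at P28 (1.20).

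The GFP-positive libraries of the P6 stroke cortex share the fit and either partner with the contrasts above, so the values stand side by side. GFP-positive against contralateral gave 409 genes (3.11%), 73 higher (0.556%) and 336 lower (2.56%), and GFP-positive against GFP-negative 441 (3.36%), 135 higher (1.03%) and 306 lower (2.33%). The median log2 fold change of all genes was -0.17 and -0.12 in these contrasts. Of the 12 genes that rose in the GFP-negative libraries, 11 were also higher there than in the GFP-positive libraries by the adjusted test, and Apoe was lower. Of all genes, 2.33% were higher in the GFP-negative libraries in that contrast. The 12 genes were picked for high values in these same GFP-negative libraries, so the count is not independent support. H2-Aa, at 7.23, 0, 0 and 12.5 TPM in the GFP-positive libraries, lay below the GFP-negative ones, with a log2 difference of -4.71 for GFP-positive minus GFP-negative (adjusted p 0.0163). Retnlg was at 19.9, 1.97, 0 and 0 TPM there (adjusted p 0.0163). Of 11 class II genes tested, 5 were lower in the GFP-positive than in the GFP-negative libraries, against 2.33% of all genes. Neutrophil list sums in the GFP-positive libraries were 93.8 to 153 TPM, and monocyte list sums 108 to 176 TPM.

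The cell cycle list was low in both gates of the stroke cortex. GFP-positive against contralateral, 11 of its 42 genes fell, against 2.56% of all genes, with a median of -0.49 beside -0.17. Its sum was 1685 to 1841 TPM in the GFP-positive libraries. GFP-positive against GFP-negative, 1 member was higher, against 1.03% of all genes, and the median was 0.11 beside -0.12. That member was Rrm2, at 56.5, 60.5, 69.2 and 52.5 TPM in the GFP-positive libraries, between the other groups (0.43 above GFP-negative, adjusted p 0.0484). Of the 24 genes that fell in the GFP-negative libraries, 10 also fell in the GFP-positive ones, against 2.56% of all genes. Both contrasts use the contralateral libraries in which the 24 were picked as high, so this overlap is not a result. Between the gates 3 of the 24 differed, Gtse1, Rrm2 and Selenoh, against 3.36% of all genes. All 3 were higher in the GFP-positive libraries. The 24 were picked for low values in these same GFP-negative libraries, so this count is not independent support. Of 28 homeostatic genes, by contrast, 6 fell from contralateral to GFP-positive and 5 from GFP-negative to GFP-positive, against 2.56% and 2.33% of all genes. Their medians were -0.37 and -0.25, beside -0.17 and -0.12 for all genes. Of 30 disease-associated genes tested, 13 were higher in GFP-positive than contralateral libraries, against 0.556% of all genes. Another count of 13 were higher in GFP-positive than in GFP-negative libraries, against 1.03%, and the medians were 0.42 and 0.34.

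At P28 the same contrast gave 34 of 14303 tested genes (0.238%), 31 higher (0.217%) and 3 lower, with a median of -0.01. The tables of the 2 ages were normalized separately, so only the contrasts inside a table were compared. Both the age of the mice and the number of days from stroke to collection differ between them, and all 8 P28 libraries here carried Y-linked transcripts while P6 groups were mixed, so these cannot be told apart. Of 12413 genes tested in both tables, 3 (0.0242%) had responses that differed by the adjusted test. H2-Q7, a nonclassical class I gene, measured 7.60, 9.85, 8.15 and 16.3 TPM contralaterally and 9.35, 4.51, 12.7 and 8.05 TPM in the GFP-negative libraries at P6, and 2.27, 4.99, 4.48 and 3.09 TPM and 39.7, 38.8, 22.1 and 18.6 TPM at P28. It overlapped between the sides at P6 and rose at P28 (2.68, adjusted p 0.00411), and the P6 response minus the P28 response was -2.94 (SE 0.46, adjusted p 0.00893). Oas2, an interferon-induced synthetase, measured 5.78, 12.1, 7.22 and 10.1 TPM and 9.07, 4.31, 5.31 and 5.57 TPM at P6, and 0.27, 0.45, 0.33 and 0.51 TPM and 9.19, 6.55, 7.20 and 2.30 TPM at P28. Its responses differed by -2.75 (SE 0.49, adjusted p 0.0428). Malat1, a nuclear long noncoding RNA, measured 2311, 2514, 2667 and 2958 TPM and 3504, 3738, 3193 and 3363 TPM at P6 (0.40, SE 0.08, adjusted p 0.0548). At P28 it measured 7221, 8789, 7314 and 5984 TPM and 4272, 5063, 5501 and 4034 TPM, and fell (-0.63, SE 0.12, adjusted p 0.0466). The difference of its responses was 1.04 (SE 0.15, adjusted p 0.00374). The calls of H2-Q7 and Malat1 held in all 19 alternatives. That of Oas2 held in 5, and was lost under rescaling and without any 1 library other than P6 GFP-negative library 1, P6 contralateral library 1 or P28 GFP-negative library 4, with an adjusted p of up to 0.142.

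**Figure D5:**
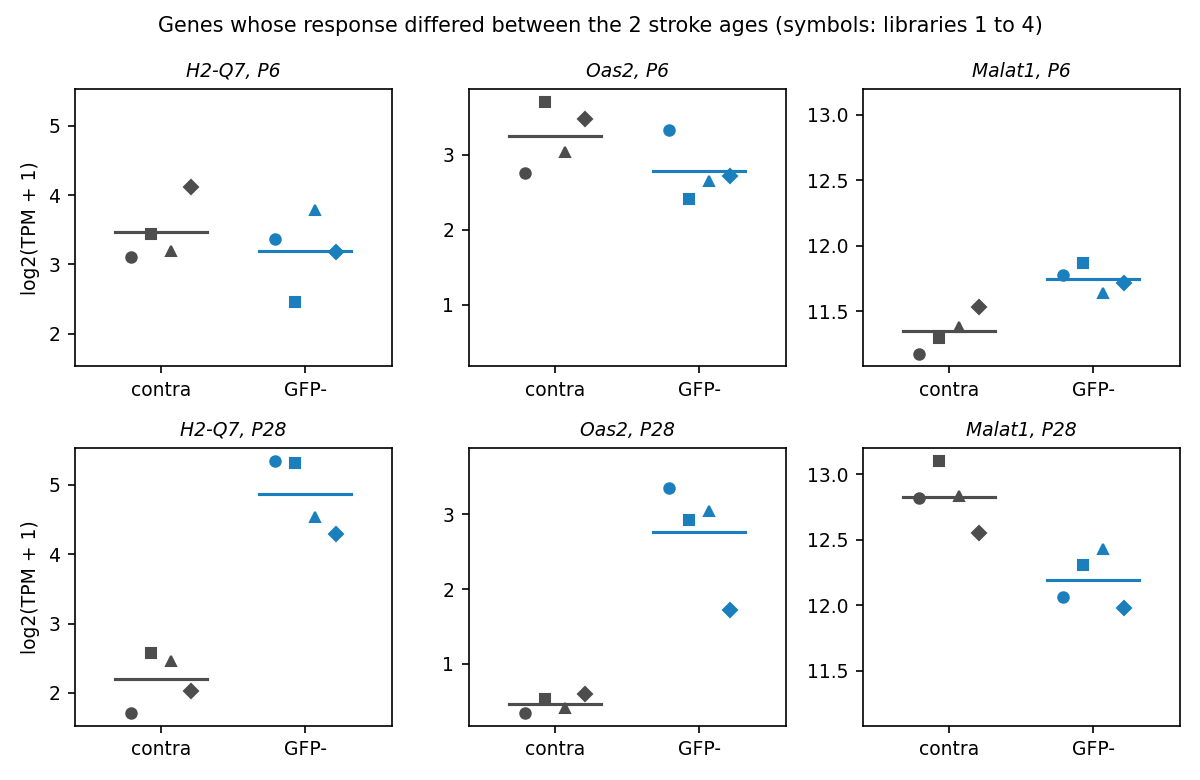
The 3 genes whose response differed between the ages are shown for the contralateral and GFP-negative libraries at P6 (upper row) and P28 (lower row) on the log2(TPM + 1) axis. H2-Q7 and Oas2 overlap between the sides at P6 and separate at P28, and Malat1 is higher in the GFP-negative libraries at P6 and lower at P28.

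For H2-Aa, Rrm2 and Apoe the responses at the 2 ages were not shown to differ. H2-Aa measured 0.57, 38.7, 2.05 and 2.53 TPM contralaterally and 14.9, 19.1, 29.5 and 125 TPM in the GFP-negative libraries at P28, with overlap (2.71, adjusted p 0.385), and the difference of 3.64 between the responses missed the threshold (adjusted p 0.443). Rrm2 was at 0 to 0.74 TPM and 0 to 1.47 TPM at P28. The responses of Rrm2 differed by -1.36 (SE 0.52, 95% interval -2.44 to -0.28, adjusted p 0.481). The cell cycle list as a whole summed to 229 to 247 TPM and 223 to 280.5 TPM at P28. These sums were not compared with those at P6, since the tables were normalized separately. At P28 none of 40 genes of the list passed the test, their median was 0.22, and no member had a response that differed. Apoe rose at P28 from 768, 894, 822 and 1036 TPM to 3705, 4303, 2456 and 1758 TPM (1.72, SE 0.24, adjusted p 0.02), and its responses differed by -1.03 (SE 0.28, adjusted p 0.28). Of the interferon list, 9 of 36 tested genes rose at P28, against 0.217% of all tested genes, with a median of 1.20, and 1 of 35 differed between ages, Oas2. Ifitm3 rose from 33.4, 22.6, 14.6 and 32.6 TPM to 155, 109, 128 and 69.5 TPM at P28 (2.13, adjusted p 0.02), and its difference of -2.19 missed the threshold (adjusted p 0.0631). Of 31 disease-associated genes tested at P28, 5 rose, against the same 0.217%, among them Clec7a (1.38, adjusted p 0.0412) and Cst7, a cystatin (2.06, adjusted p 0.0324). For both, the difference between the ages missed the threshold, with adjusted p-values of 0.365 and 0.202. Of 17 class I genes, 4 rose at P28 against that share, H2-K1 (0.87, adjusted p 0.0364) and H2-D1 (1.11, adjusted p 0.031) among them, and Ccl12 rose by 1.33 (adjusted p 0.00684), with a difference of -1.15 between the ages (adjusted p 0.481).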

How the data were processed

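Bulk libraries of 2000 sorted microglia were sequenced as paired reads of 150 bp after a modified SMART-Seq2 protocol, per the labels' protocols. The authors deposited 1 table of TPM per stroke age, with 55413 genes. The submitters' processing notes name cutadapt 2.10, STAR 2.7.5c, RSEM 1.3.3 and edgeR 3.32.0 with the builds GRCm38 and mm10, and RSEM estimates TPM. No counts were used, so depth and counting intervals are unknown. The tables of the 2 ages were normalized separately.

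Genes with at least 1 TPM in 4 of the 12 P6 libraries were fitted with limma 3.58.1 in R 4.3.3 on log2(TPM + 1), with a pseudocount of 1 and a variance trend, all 3 P6 groups in 1 model, and Benjamini-Hochberg adjustment over all tested genes. Fold changes on this scale understate the change of low genes. The response at P6 minus that at P28 was tested in 1 model over 24 libraries. "Rose" and "fell" are used for an adjusted p under 0.05, and library n means replicate n. Up to 15 called genes and 10 genes of the largest fold, whose higher group averaged 10 TPM or more, were named per direction, with 8 per direction for the difference between ages and up to 5 per list. Other genes named were chosen after their values were seen. The contrast and the 40 lists were chosen with earlier results of these data known, so no list's count is independent support. The fit was tested on simulated data. Positions are from GENCODE M21 and promoters from RefSeq. Alternatives covered the pseudocount, filter, scaling, fit, replicate block and each library left out. A sex term and the counts per list under each setting were added after seeing the data. The other disease models and the single-cell pools were not analysed here.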

Additional observations from a re-analysis of the deposited data

Results flagged for a closer look

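In 98 genes, most of them named above and the rest picked by the same naming rule, each side's 4 P6 libraries were searched for a library whose gap to its nearest neighbour took up more of the group's range than Dixon's critical value. This was found in 20 of 184 groups that held more than 1 value. A chance rate of about 1 in 20 holds for normally distributed values, which was not tested for these TPM. A group with a single nonzero value is flagged whatever that value is. The count of 20 therefore cannot be compared with that rate.

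Of these, 4 lie in GFP-negative library 1. Retnlg was at 345 TPM there with the next library at 72.5 TPM, Pglyrp1 at 39.1 TPM with the next at 11.2 TPM, Padi4 at 4.33 TPM with the next at 1.74 TPM, and Cenpf at 8.19 TPM with the next at 4.38 TPM. Without Retnlg, the neutrophil list summed to 166 TPM in this library and to 141 to 157 TPM in the other GFP-negative libraries.

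GFP-negative library 2 held 6 more. Spp1 stood at 91.6 TPM with the next library at 15.1 TPM, Ccl12 at 1174 TPM with the next at 472 TPM, Ly6c2 at 3.75 TPM with the next at 0.41 TPM, and Mcm6 at 113 TPM with the next at 79.4 TPM. Lpl was lowest there at 71.4 TPM, below 92.3 TPM. Snhg9, a small nucleolar RNA host gene whose exons overlap those of Rps2, was at 51.4 TPM with the next at 22.8 TPM and did not pass the test (adjusted p 0.423). In GFP-negative library 3, Gm27505 at 42.2 TPM was the 1 value above 0 of its group.

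On the contralateral side, library 2 was high for Ifit2 at 33.1 TPM, with the next at 6.71 TPM, and for Cx3cr1 at 1954 TPM, with the next at 1764 TPM. Library 3 was low for Csf1r at 4282 TPM and Stmn1 at 227 TPM, next to 4693 and 240.2 TPM, and high for Lpl at 129.9 TPM, next to 105 TPM. Library 4 was high for Sall1 at 141 TPM, next to 122 TPM. The other 3 are single nonzero values beside 3 libraries at 0, Cd24a at 0.16 TPM and H2-Aa at 0.17 TPM in library 1 and Plbd1 at 0.42 TPM in library 2.

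The test of the P6 response minus the P28 response set apart H2-Q7 at -2.94 and Oas2 at -2.75, which rose at P28 but did not pass the test at P6, and Malat1 at 1.04.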

How the results depend on the processing

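Depth is unknown and each side has 4 libraries, and the number of genes past the threshold moved with many settings. For GFP-negative against contralateral at P6, 36 genes became 18 under median-of-ratios rescaling, 78 with limma array weights, 19 without a variance trend, and 3 to 27 with 1 library left out. All 36 kept their direction under every alternative in which they were tested. Because their libraries did not overlap between the sides, leaving out 1 library could not have reversed them. At P28, 34 genes became 21 under rescaling and 2 to 46 with 1 library left out, 15 or fewer without any of the 8 except GFP-negative library 4. For the difference between the ages, 3 genes became 5 with a pseudocount of 0.1 and 2 to 29 with 1 library left out (29 without P28 GFP-negative library 4, 5 without P6 contralateral library 1). The cause was not tested. No called gene reversed. Among named genes that had missed the threshold at P6, some with values near 0 changed sign. Under rescaling these were Csf1r (0.013), Cx3cr1 (0.031) and Ifitm3 (0.0066). With 1 library left out their values ran from -0.17 to 0.43 for Ccl12, from -0.051 to 0.010 for Cx3cr1, from -0.031 to 0.17 for H2-DMa, from -0.041 to 0.14 for H2-K1, from -0.71 to 0.17 for Ifit2 and from -0.23 to 0.13 for Ifitm3. A term for sex, added after seeing the data, gave 27 genes.

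Equal replicate numbers were not taken to pair the libraries. The deviations of same-numbered libraries from their group means correlated at 0.10, 0.04, 0.07 and 0.09, not all above 0.1. All 4 GFP-negative libraries matched the contralateral library of their number best, as did 3 of 4 in the other direction, with contralateral library 2 the exception. Sex follows the number at P6, with libraries 1 and 2 of each group carrying Y-linked transcripts. A replicate block gave 29 genes at P6, 23 of them among the 36, with 28 at P28 and 19 for the difference between the ages.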
